A study of Homo sapiens with 6 samples.

Results

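The genes described here are 36 genes of mitosis and of the G2/M phase of the cell cycle, taken by symbol from a list of cyclins, mitotic kinases, spindle checkpoint proteins, kinetochore and spindle proteins, cytokinesis factors and proliferation markers. All 36 were found among the 25277 rows of the deposited expression table. The study profiled RNA from Jeko and Rec-1, a pair of human mantle cell lymphoma lines, a B-cell lymphoma known for cyclin D1 overexpression. Each line contributed 3 libraries. The control carried an empty CRISPR/Cas9 vector, and the other libraries carried guide 1 or guide 2 (sgRNA) against NR4A1, which encodes an orphan nuclear receptor of the steroid receptor superfamily. Vectors were stable and doxycycline-inducible, and every library, controls included, came from cells given doxycycline for 48 h. The labels name no separate cultures, so the spread between the guides of a line may be partly technical, and each line has 1 control library.

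Entry into mitosis is driven by CDK1 bound to cyclin B, and the spindle checkpoint then holds the anaphase-promoting complex (APC/C) inactive until every kinetochore is attached. Most genes of this programme are transcribed late in the cell cycle under the DREAM and MuvB-MYBL2-FOXM1 complexes. These bind a short promoter element called CHR, often near CCAAT boxes bound by NF-Y. Their transcripts are widely read as a measure of proliferation in lymphoma.

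Promoter windows show what these genes have in common in sequence. RefSeq windows (build GRCh38.p14) reaching from 250 bases before to 50 bases after the transcription start were matched for 29 of the 36 genes. UBE2C, BUB3, AURKA, FOXM1, BIRC5, TPX2 and TTK were not matched. The CHR was searched as TTTGAA or TTCGAA and the CCAAT box as CCAAT, both on either strand, and a match describes letters, not binding. A CHR match stood in 22 of the 29 genes (75.9%), beside 15.4% of 8051 tested protein-coding genes and 19.5% of all 27305 genes with a window. CCAAT was found in 23 of 29 (79.3%), beside 43.8% and 39.7%. Both were found in 18 of 29 (62.1%), beside 6.62% and 7.85%. A CHR match within 50 bases of the start was present in 19 of 29 (65.5%), beside 5.13% and 6.24%. The windows printed here belong to genes on which the expression results turn (BUB1, NUF2, MKI67, PRC1 and PTTG1) and to CCNB1 and PLK1, which passed no test. Each runs 5′ to 3′ from 150 bases before the start to 24 bases after it, with CHR and CCAAT matches in capitals. In MKI67 a CHR overlaps a CCAAT match read on the opposite strand, and in PTTG1 CCAAT matches on the 2 strands overlap each other.
BUB1, chr2:110678040-110678213, minus strand: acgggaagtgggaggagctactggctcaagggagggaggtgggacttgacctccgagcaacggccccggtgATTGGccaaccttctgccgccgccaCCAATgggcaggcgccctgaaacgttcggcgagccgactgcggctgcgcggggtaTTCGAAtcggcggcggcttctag
NUF2, chr1:163321804-163321977, plus strand: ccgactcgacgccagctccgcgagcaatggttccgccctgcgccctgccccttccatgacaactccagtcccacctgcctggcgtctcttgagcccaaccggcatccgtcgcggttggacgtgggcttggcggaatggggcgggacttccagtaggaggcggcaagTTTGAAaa
MKI67, chr10:128126400-128126573, minus strand: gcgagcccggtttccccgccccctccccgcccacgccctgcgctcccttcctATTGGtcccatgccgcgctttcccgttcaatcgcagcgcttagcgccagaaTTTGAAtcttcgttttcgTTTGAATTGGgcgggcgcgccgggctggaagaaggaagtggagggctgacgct
PRC1, chr15:90994512-90994685, minus strand: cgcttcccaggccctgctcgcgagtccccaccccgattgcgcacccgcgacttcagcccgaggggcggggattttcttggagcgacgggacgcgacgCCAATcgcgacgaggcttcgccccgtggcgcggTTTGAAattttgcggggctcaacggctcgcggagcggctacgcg
PTTG1, chr5:160421705-160421878, plus strand: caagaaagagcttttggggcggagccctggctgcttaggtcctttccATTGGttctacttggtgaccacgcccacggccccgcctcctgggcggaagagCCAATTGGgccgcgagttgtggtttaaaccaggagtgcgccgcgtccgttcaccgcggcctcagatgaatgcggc
CCNB1, chr5:69167000-69167173, plus strand: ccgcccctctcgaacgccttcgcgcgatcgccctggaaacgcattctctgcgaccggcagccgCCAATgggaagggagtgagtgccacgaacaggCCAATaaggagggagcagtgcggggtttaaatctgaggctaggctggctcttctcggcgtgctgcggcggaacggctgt
PLK1, chr16:23678739-23678912, plus strand: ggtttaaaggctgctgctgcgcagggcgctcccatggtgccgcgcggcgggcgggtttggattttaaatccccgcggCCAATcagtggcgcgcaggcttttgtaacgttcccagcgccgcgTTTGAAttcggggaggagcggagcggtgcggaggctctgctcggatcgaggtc
BUB1 has its CHR just after the start and its CCAAT matches before it. NUF2 has a CHR and no CCAAT in the window printed. PRC1 and PLK1 each have 1 of both in the same order, CCAAT and then CHR. PTTG1 and CCNB1 have CCAAT matches and no CHR in these letters. A CHR stood both in BUB1, lowest in the Rec-1 sgRNA libraries, and in PRC1, highest there. With a CHR in 75.9% of the matched genes, 1 gene in each direction does not link the CHR to direction.

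The library labelled Rec-1 control stood nearer to Jeko than to the Rec-1 sgRNA libraries, which bears on every comparison within Rec-1. Across 10322 protein-coding genes, Pearson's r of the library labelled Rec-1 control was 0.988 with the Jeko control, 0.955 and 0.966 with the Jeko sgRNA libraries, and 0.805 and 0.812 with the Rec-1 sgRNA libraries. Each r is taken across genes, so it carries no test. NR4A1, the targeted gene, had 5.99 FPKM (fragments per kilobase of transcript, scaled to mapped fragments) with empty vector in Jeko and 3.89 and 4.44 with guides 1 and 2. In Rec-1 the values were 11.6 with empty vector and 27.4 and 12.7 with guides 1 and 2, so the gene was not lower with either guide there. CCND1, which encodes cyclin D1, was 442 to 815 FPKM in Jeko and the library labelled Rec-1 control, against 0.696 and 0.592 where Rec-1 carried a guide. Summed over 5 T-cell markers, levels were 2.69 to 5.69 FPKM in those 4 libraries, against 102 and 119.8 where Rec-1 carried a guide, mostly CD3D and CD3G (3 of the 5 reached 1 FPKM in any library), with CD2 at or near 0 throughout. The sum of 5 myeloid markers was 0.573 to 1.18 against 11.9 and 17.0, nearly all CD33. The sum of 8 B-cell markers was 602 to 1069 FPKM in all 6, and the 3 erythroid markers were listed at 0. The part of these differences in the results for Rec-1 was not tested. In what follows, "Rec-1 control" and "Rec-1 with empty vector" mean the library labelled so. A "line difference" means Rec-1 minus Jeko among sgRNA libraries. In it, a difference of the lines and a response to the guides in 1 line cannot be told apart. Since the library labelled Rec-1 control stood nearer to Jeko, they cannot be told apart in Rec-1 sgRNA against that control either. The interaction and the fit over both lines use the same control and share this limit.

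All 36 genes were expressed in all 6 libraries and all passed the filter of a mean of 1 FPKM. Mean levels ran from 6.33 FPKM for CENPE to 169.5 FPKM for PTTG1, and 17 of the 36 genes averaged 50 FPKM or more. The ratio of the highest to the lowest library was under 2 for 23 genes and 2 or more for 13. BUB1 had the widest range, 6.79-fold, followed by NUF2 at 3.13-fold, PRC1 at 3.06-fold and CENPF at 2.96-fold. CCNB1 at 1.22-fold and CDK1 at 1.23-fold were at the other end. Between the 2 control libraries, no gene of the 36 differed by 1.5-fold, beside 6.67% of all 11400 tested genes, and their Pearson's r over the 36 genes was 0.994.

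**Figure D1:**
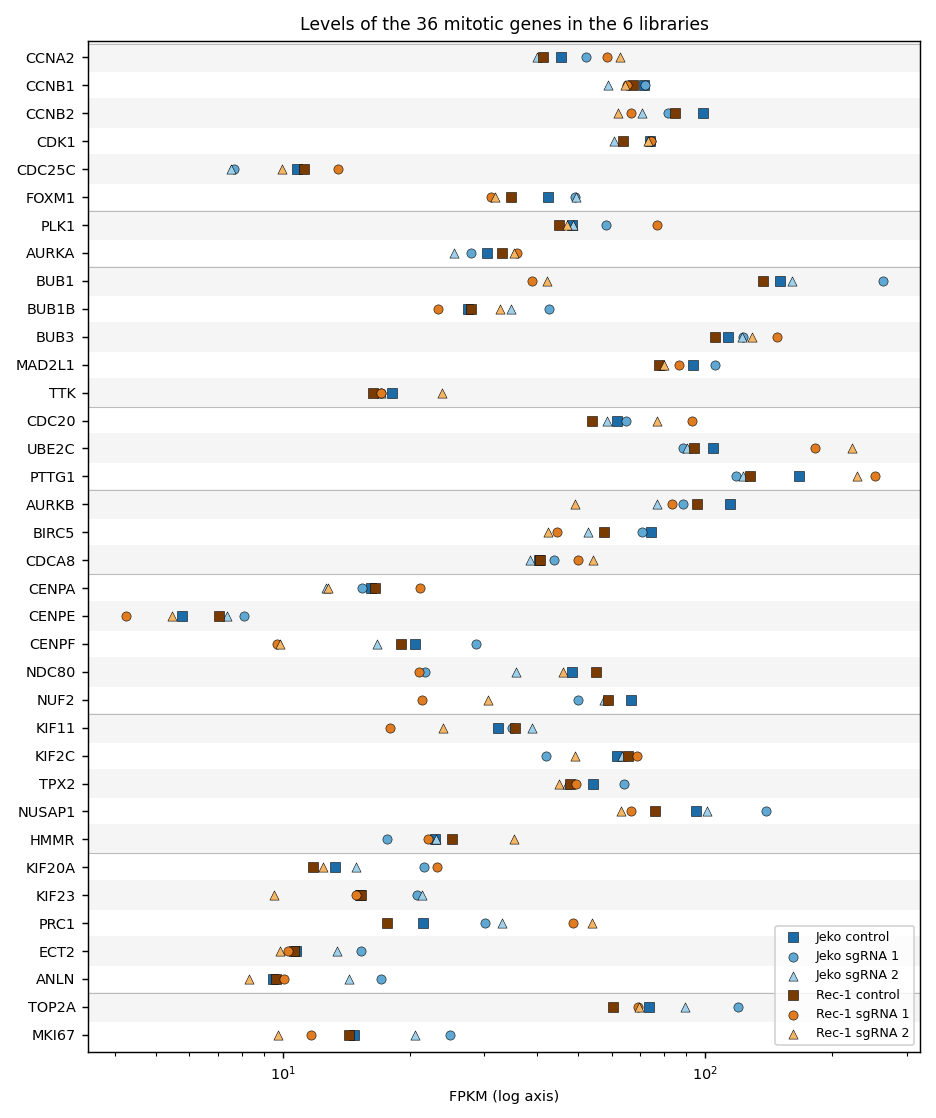
FPKM of each of the 36 mitotic genes (rows, grouped by role between the grey lines) in the 6 libraries, on a log axis; squares are controls, circles guide 1 and triangles guide 2, with blue for Jeko and orange or brown for Rec-1. The points of CCNB1 and CDK1 nearly coincide, while the Rec-1 sgRNA points of BUB1 lie far to the left (38.8 and 42.2 FPKM) and those of UBE2C and PTTG1 to the right of the other 4 libraries.

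The first comparison was that of sgRNA with empty vector, tested by limma on log2(FPKM + 1). No gene of the 36 passed an adjusted p of 0.05 when both lines were fitted together, beside 0.246% of all 11400 tested genes. An unadjusted p under 0.05 was reached by 2 of the 36, beside 2410 of the 11400. Within Jeko none passed either, beside 0.439%, with 1 at an unadjusted p under 0.05, beside 1287 of the 11400. The median log2 difference of the 36 genes from their own control was 0.12 with guide 1 and -0.07 with guide 2 in Jeko, and 0.05 and -0.09 in Rec-1. Over all tested genes the same medians lay between -0.02 and 0.00. In Jeko, 23 genes were above and 13 below the control with guide 1, and 17 and 19 with guide 2. In Rec-1 the split was 19 and 17 with guide 1 and 16 and 20 with guide 2. The 36 genes thus had no common direction in any library. In bulk RNA, fewer dividing cells and less of a transcript per cell cannot be told apart.

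A change of at least 1.5-fold was seen for 7 of 36 genes with guide 1 in Jeko (22.4% of all tested genes) and for 1 with guide 2 (25.8%). In Rec-1 it was seen for 12 with guide 1 (52.1%) and 9 with guide 2 (49.9%). In Jeko no gene passed 1.5-fold with both guides in the same direction, beside 6.32% higher and 5.02% lower of all tested genes. In Rec-1, PRC1, PTTG1 and UBE2C were higher with both guides (20.3% of all tested genes) and BUB1, CENPF and NUF2 lower (20.1%). In each of these counts the share among the 36 genes was below that of all tested genes. The difference in shares was not tested.

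**Figure D2:**
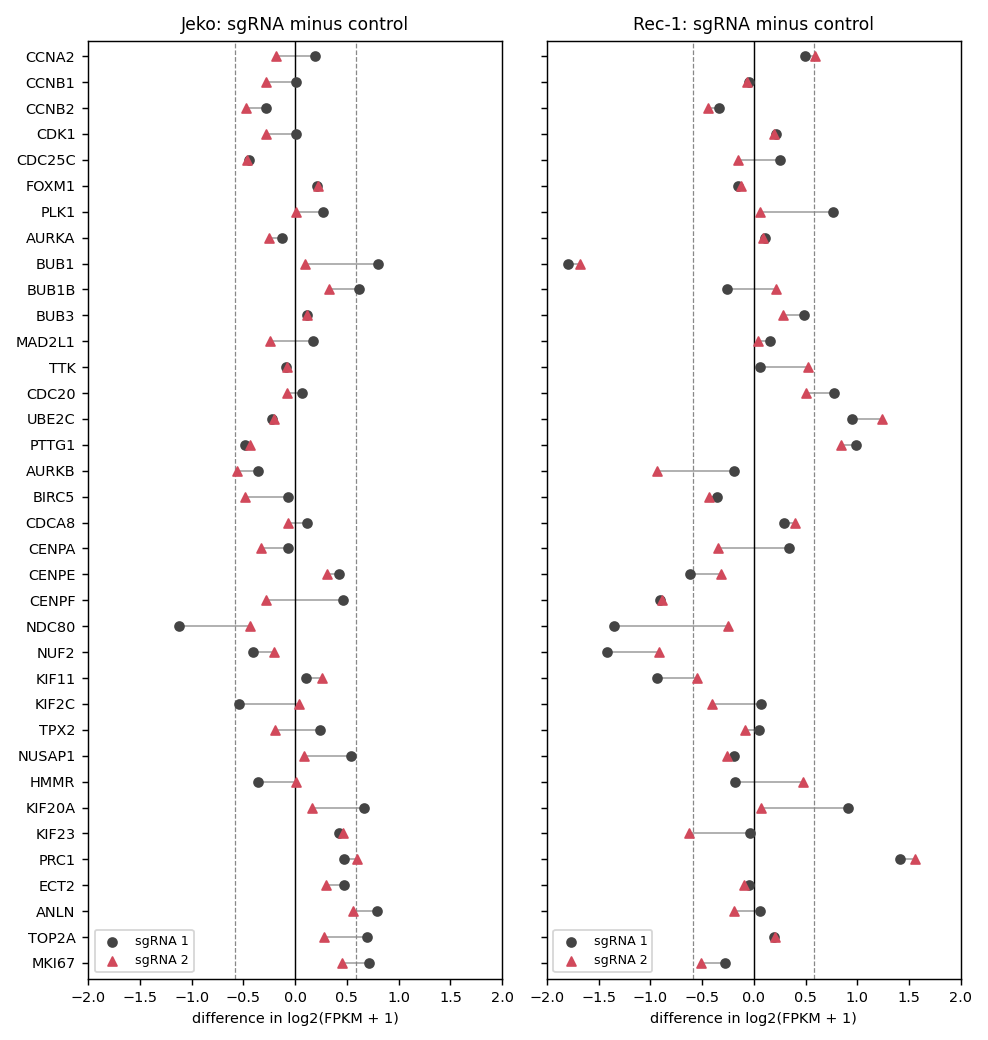
Difference in log2(FPKM + 1) of each sgRNA library from the control of its own line, for the 36 mitotic genes in Jeko (left) and Rec-1 (right); circles are guide 1, triangles guide 2, the grey bar joins them, and dashed lines mark 1.5-fold. Jeko points gather near 0 with the guides often apart, and BUB1, PRC1, UBE2C and PTTG1 stand out in Rec-1 with the guides close together.

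The cyclins and CDK1, the engine of mitotic entry, gave no call, and CCNB1 and CDK1 had the narrowest ranges of all 36 genes. CCNB1 (cyclin B1) had 71.8 FPKM in Jeko with empty vector, 72.2 and 59.0 with guides 1 and 2, 67.6 in Rec-1 with empty vector, and 65.3 and 64.5 with guides 1 and 2. CDK1, its kinase partner, was 73.9, then 74.4 and 60.7 FPKM in Jeko, and 63.8, then 74.3 and 73.1 in Rec-1. For both genes the sgRNA libraries of the lines overlapped, and Rec-1 minus Jeko sgRNA was -0.01 (SE 0.19) for CCNB1 and 0.13 (SE 0.19) for CDK1 on the log2 scale (limma adjusted p 0.982 and 0.632). CCNA2 (cyclin A2) had 45.5 FPKM in Jeko with empty vector, 52.2 and 40.0 with the guides, 41.4 in Rec-1 with empty vector, and 58.7 and 62.7 with the guides. It was highest in the Rec-1 sgRNA libraries, with a line difference of 0.40 (SE 0.21) that did not pass (limma adjusted p 0.220). CCNB2 (cyclin B2) ranged from 62.1 to 99.1 FPKM and was below its own control in all 4 sgRNA libraries. CDC25C, the phosphatase that activates CDK1, ranged from 7.51 to 13.5 FPKM.

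FOXM1, the transcription factor that drives late G2/M genes, had 42.4 FPKM with empty vector in Jeko, then 49.2 and 49.5 with guides 1 and 2. The Rec-1 values were 34.6, then 31.0 and 31.8. The sgRNA libraries of the lines did not overlap, and their difference of -0.64 (SE 0.16) had a limma adjusted p of 0.0554. FOXM1 shares 22.02% of its annotated transcript with ITFG2 on the opposite strand (4.90 to 18.5 FPKM), and whether the authors counted by strand is not given in the sources used here.

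The kinases PLK1 and AURKA, which act at centrosomes and the spindle, passed no test. PLK1 had 48.3 FPKM in Jeko with empty vector, 58.3 and 48.5 with the guides, 45.0 in Rec-1 with empty vector, and 77.0 and 47.1 with the guides. It was above its control with guide 1 in both lines and close to it with guide 2. AURKA was 30.5, then 27.8 and 25.4 FPKM in Jeko, and 33.1, then 35.8 and 35.2 in Rec-1, a line difference of 0.40 (SE 0.17, limma adjusted p 0.150).

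BUB1, the spindle checkpoint kinase that recruits the other checkpoint proteins to kinetochores, showed the largest difference of the 36. The gene lies on chromosome 2 (GRCh37, 111395105 to 111435640, minus strand). BUB1 had 151 FPKM in Jeko with empty vector, 263 and 161 with guides 1 and 2, 137 in Rec-1 with empty vector, and 38.8 and 42.2 with guides 1 and 2. Both Rec-1 sgRNA libraries were below the 4 others, and both Jeko sgRNA libraries above their control. It was lower by a log2 difference of -2.32 (SE 0.29, limma adjusted p 0.0123) in Rec-1 than in Jeko sgRNA libraries, a 4.99-fold difference on this scale. Against the Rec-1 control the difference was -1.74 (SE 0.37, limma adjusted p 0.0471). In Jeko it was 0.44, above the control and not past the test, and the difference between the lines, -2.18 (SE 0.52), did not pass either (limma adjusted p 0.112).

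No other checkpoint gene passed a test. BUB1B, which encodes the checkpoint inhibitor BubR1, had 27.4 FPKM in Jeko with empty vector, 42.7 and 34.7 with the guides, 27.9 in Rec-1 with empty vector, and 23.2 and 32.7 with the guides. BUB3, which carries BUB1 and BubR1 to the kinetochore, was 113, then 123 and 122.6 FPKM in Jeko, and 106, then 148 and 129 in Rec-1. BUB3 was above its own control in all 4 sgRNA libraries, while BUB1B was lower in the Rec-1 than in the Jeko sgRNA libraries, without overlap (-0.47, SE 0.25, limma adjusted p 0.235). MAD2L1, which forms the inhibitory complex with CDC20, ranged from 77.6 to 105 FPKM, and the checkpoint kinase TTK from 16.3 to 23.8 FPKM.

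UBE2C and PTTG1, which act with the APC/C, were higher in Rec-1 sgRNA libraries. UBE2C, the ubiquitin-conjugating enzyme of the APC/C (chromosome 20, 44441215 to 44445596 in GRCh37), had 104 FPKM in Jeko with empty vector, 88.7 and 90.4 with guides 1 and 2, 94.1 in Rec-1 with empty vector, and 182 and 223 with guides 1 and 2. PTTG1, or securin, the APC/C substrate that holds separase inactive (chromosome 5, 159848862 to 159855746), was 167, then 119 and 123 FPKM in Jeko, and 127, then 253 and 229 in Rec-1. For both genes the Jeko guides lay below all other libraries and the Rec-1 guides above all others. Against Jeko sgRNA libraries, UBE2C was higher by 1.16 (SE 0.18, limma adjusted p 0.0205) and PTTG1 by 0.99 (SE 0.16, limma adjusted p 0.0222) on the log2 scale. Against the Rec-1 control, UBE2C passed at 1.09 (SE 0.24, limma adjusted p 0.0496) and PTTG1 did not at 0.91 (SE 0.21, limma adjusted p 0.0560). Of the near copies of PTTG1 searched, PTTG2 reached at most 0.283 FPKM and PTTG3P was listed at 0. CDC20, the APC/C activator that the checkpoint inhibits, was 61.9, then 64.98 and 58.6 FPKM in Jeko, and 53.9, then 93.2 and 77.0 in Rec-1. It too was highest in the Rec-1 sgRNA libraries, without passing the line test (0.45, SE 0.19, limma adjusted p 0.156).

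The chromosomal passenger complex corrects faulty kinetochore attachments. AURKB, its kinase, had 114 FPKM in Jeko with empty vector, 88.7 and 76.9 with the guides, 95.5 in Rec-1 with empty vector, and 83.4 and 49.3 with the guides. BIRC5, or survivin, was 74.3, then 70.8 and 52.7 FPKM in Jeko, and 57.6, then 44.7 and 42.3 in Rec-1. Both were below their own control in all 4 sgRNA libraries, and neither passed a test. CDCA8, or borealin, ranged from 38.5 to 54.1 FPKM and was highest in the Rec-1 sgRNA libraries.

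Among centromere and kinetochore genes, NUF2 and CENPF were low in the Rec-1 sgRNA libraries. NUF2, a subunit of the microtubule-binding NDC80 complex (chromosome 1, 163236366 to 163325554), had 66.7 FPKM in Jeko with empty vector, 50.1 and 57.7 with guides 1 and 2, 58.7 in Rec-1 with empty vector, and 21.3 and 30.5 with guides 1 and 2. It was below its own control in all 4 sgRNA libraries and below all others in the Rec-1 guides. NUF2 was lower than in Jeko sgRNA libraries by a log2 difference of -1.05 (SE 0.24, limma adjusted p 0.0478), while its difference from the Rec-1 control, -1.17, did not pass (limma adjusted p 0.0706). CENPF, a large kinetochore and nuclear matrix protein, was 20.5, then 28.6 and 16.7 FPKM in Jeko, and 19.0, then 9.68 and 9.83 in Rec-1. Its line difference of -1.09 had a larger error (SE 0.31), since the Jeko guides were far apart, and did not pass (limma adjusted p 0.0714).

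NDC80, the partner of NUF2 in the same complex, was lower by value with guide 1 than with guide 2, and no test called it. Jeko had 48.4 FPKM with empty vector and 21.7 and 35.6 with guides 1 and 2. Rec-1 had 55.0 with empty vector and 21.0 and 46.1 with guides 1 and 2. This order of the guides held in both lines, and all 4 sgRNA libraries were below their control. Its difference from control over both lines was -0.79 (SE 0.38, limma adjusted p 0.267). CENPA, the centromeric histone, ranged from 12.6 to 21.1 FPKM, and CENPE, a kinetochore motor, from 4.25 to 8.08 FPKM.

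The spindle motors and microtubule binders gave no call. KIF11, the motor that separates spindle poles, ranged from 18.0 to 38.8 FPKM and was lowest in the Rec-1 sgRNA libraries, with a line difference of -0.80 (SE 0.22, limma adjusted p 0.0667). NUSAP1, a microtubule bundler, ranged from 63.4 to 139 FPKM and was likewise lowest there (-0.86, SE 0.22, limma adjusted p 0.0602). KIF2C, which depolymerises microtubules at centromeres, ranged from 41.9 to 69.1 FPKM. TPX2, the activator of AURKA, ranged from 45.0 to 64.3 FPKM. HMMR had 22.9 FPKM in Jeko with empty vector, 17.7 and 23.0 with the guides, 25.2 in Rec-1 with empty vector, and 22.1 and 35.3 with the guides, higher with guide 2 than guide 1 in both lines.

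PRC1, which crosslinks the microtubules of the central spindle, was the one gene of the midzone group to pass a test. The gene lies on chromosome 15 (GRCh37, 91509270 to 91538859). PRC1 had 21.5 FPKM in Jeko with empty vector, 30.1 and 33.1 with guides 1 and 2, 17.6 in Rec-1 with empty vector, and 48.5 and 53.9 with guides 1 and 2. Every sgRNA library was above both controls, and the sgRNA libraries of the 2 lines did not overlap. It had the largest estimate of the 36 over both lines, 1.01 (SE 0.27, limma adjusted p 0.179), and was higher by 1.49 (SE 0.22, limma adjusted p 0.0222) against the Rec-1 control. In Jeko the difference was 0.54 (SE 0.22, limma adjusted p 0.459), and between the sgRNA libraries of the lines 0.68 (SE 0.17, limma adjusted p 0.0574). The annotated PRC1 transcript overlaps PRC1-AS1 on the opposite strand over 38.8% of its length, and PRC1-AS1 had 5.97 to 13.0 FPKM, so without strand their reads cannot be told apart.

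The other 4 cytokinesis genes gave no call, and each was above the control with both guides in Jeko. ANLN, or anillin, an actin-binding protein of the cleavage furrow, had 9.45 FPKM in Jeko with empty vector, 17.1 and 14.4 with the guides, 9.60 in Rec-1 with empty vector, and 10.1 and 8.31 with the guides. Both Jeko guides lay above all other libraries, and the difference of 0.67 (SE 0.24) had a limma adjusted p of 0.439. KIF20A, a midzone motor, was 13.3, then 21.6 and 14.9 FPKM in Jeko, and 11.8, then 23.1 and 12.4 in Rec-1, higher with guide 1 in both lines. KIF23, a subunit of centralspindlin, ranged from 9.53 to 21.4 FPKM, and ECT2, the exchange factor that starts the furrow, from 9.85 to 15.3 FPKM.

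MKI67 and TOP2A, proliferation markers that coat or untangle chromosomes, were higher with the guides in Jeko by value. MKI67, which encodes the Ki-67 antigen (chromosome 10, 129894923 to 129924687), had 14.8 FPKM in Jeko with empty vector, 24.8 and 20.5 with guides 1 and 2, 14.4 in Rec-1 with empty vector, and 11.7 and 9.75 with guides 1 and 2. The Jeko guides were above both controls and the Rec-1 guides below them. MKI67 was lower in Rec-1 than in Jeko sgRNA libraries by a log2 difference of -1.01 (SE 0.21, limma adjusted p 0.0363), and its Jeko difference from control was 0.58 (SE 0.24, limma adjusted p 0.465). TOP2A was 73.5, then 119.7 and 89.6 FPKM in Jeko, and 60.5, then 69.3 and 69.8 in Rec-1. It was above its own control in all 4 sgRNA libraries.

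Counted over the 36 genes, 5 differed between the sgRNA libraries of the lines, 2 higher in Rec-1 (UBE2C and PTTG1) and 3 lower (BUB1, NUF2 and MKI67), beside 25.7% of all tested genes (12.6% higher, 13.1% lower). That share, 13.9% of the 36, is below the background. An unadjusted p under 0.05 was reached by 13 of the 36, beside 4778 of all 11400 tested genes. The sgRNA libraries of the lines did not overlap for 24 of the 36 genes, beside 69.9% of all tested genes. Rec-1 sgRNA libraries lay above all 4 others for 8 of the 36 (27% of all tested genes) and below them for 12 (29.1%). Against the Rec-1 control, 3 of 36 passed (BUB1, PRC1 and UBE2C), 8.33%, beside 19.2% of all tested genes (10% higher, 9.11% lower). Of the interaction tests, 0 of 36 passed, beside 6.94%, with 5 at an unadjusted p under 0.05, beside 2498 of all 11400.

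Most of these calls were lost when 1 guide library was left out. Without either Rec-1 guide library, 0 of the 36 passed between the lines (7.43% and 8.24% of all tested genes), and without either Jeko guide library BUB1 alone passed (10.2% and 11%). Against the Rec-1 control, 0 passed when any of the 4 guide libraries was left out (5.76% to 9.18%). The estimates kept their sign: BUB1 stayed between -2.67 and -1.96 between the lines, with limma adjusted p from 0.0210 to 0.108, and UBE2C between 1.02 and 1.30, with adjusted p from 0.0777 to 0.103. For PTTG1, NUF2 and MKI67 the adjusted p between the lines rose to at most 0.114, 0.177 and 0.174. PRC1 against the Rec-1 control had adjusted p from 0.0704 to 0.102.

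**Figure D3:**
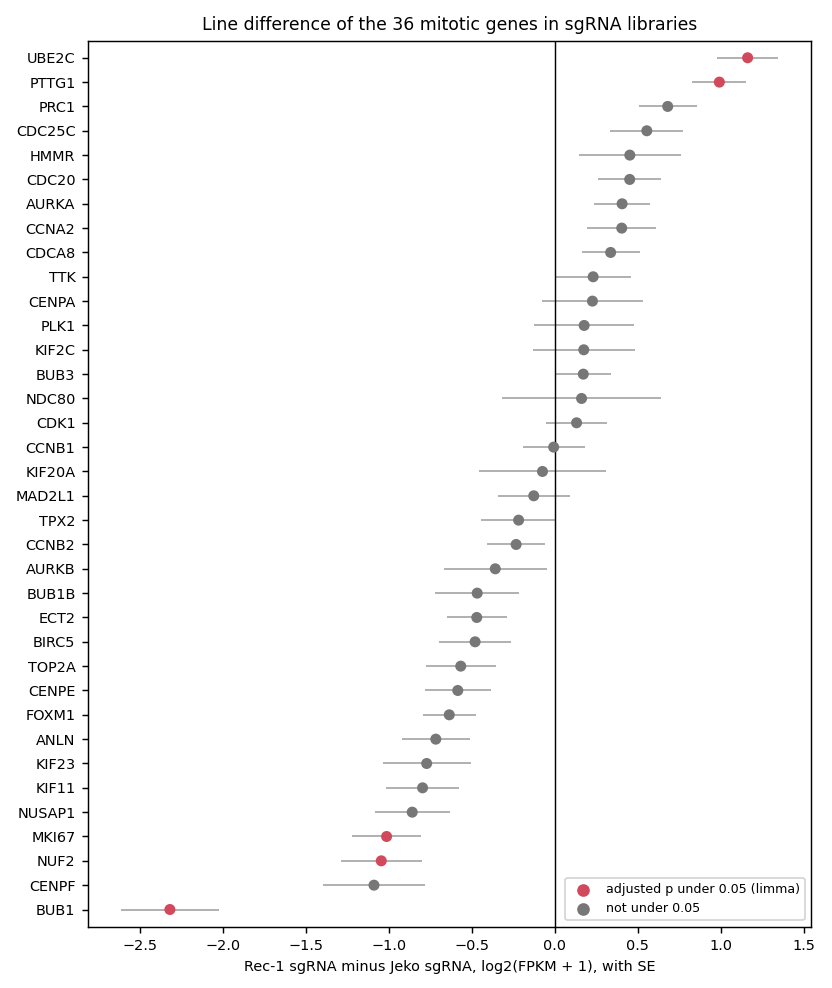
Rec-1 sgRNA minus Jeko sgRNA in log2(FPKM + 1) for each of the 36 mitotic genes, ordered by the estimate, with the limma standard error as bars (2 libraries per line); red points had an adjusted p under 0.05. The estimates run from -2.32 (BUB1) to 1.16 (UBE2C), and 5 are red.

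The guides themselves were also compared. No gene of the 36 and none of all tested genes passed between guide 2 and guide 1 (0%, limma adjusted p), with 2 of the 36 and 656 of all at an unadjusted p under 0.05. The largest estimates belonged to NDC80 (0.90, SE 0.21), KIF20A (-0.68, SE 0.20), HMMR (0.51, SE 0.20) and PLK1 (-0.48, SE 0.21), all at a limma adjusted p of 0.715. Within Jeko, guide 2 was below guide 1 for 25 of the 36 genes, with a median difference of -0.19, beside -0.02 for all tested genes. In Rec-1 it was below for 21, with a median of -0.04 beside 0.03. The largest gap between guides was CENPF in Jeko (-0.75) and NDC80 in Rec-1 (1.10).

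In Jeko, the difference from control followed the length of the gene's annotated transcript. Across the 36 genes, Spearman's rho between transcript length and the mean difference of the guides was 0.75, and 0.69 and 0.68 for guides 1 and 2 singly, which share the control library. Across 10322 protein-coding genes it was 0.53 and 0.50, so the relation was not limited to mitotic genes. Genes are not independent replicates, and no p is given. The 12 shortest transcripts (715 to 2126 nt, among them PTTG1, UBE2C, AURKB, CCNB2, CDK1 and NDC80) had a median difference of -0.26, with 0 of 12 above the control. The 12 longest (3660 to 12716 nt, among them BUB1, ANLN, TOP2A, CENPF and MKI67) had a median of 0.42, with 11 of 12 above it. In Rec-1 rho was -0.25 over the 36 genes for the mean of the guides, beside 0.16 over protein-coding genes. The line difference between sgRNA libraries had rho -0.55, beside -0.11.

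With log2 values adjusted for a smooth trend on transcript length in each library, rho over the 36 genes was 0.12 in Jeko, -0.42 in Rec-1 and -0.44 for the line difference, so it was nearer to 0 in Jeko and farther from 0 in Rec-1. The Jeko estimate of MKI67, the longest transcript, went from 0.58 to 0.15. Between the lines, 5 genes passed (beside 33.7% of the 10322 genes fitted), BUB1 (-2.27), NUF2 (-1.10), UBE2C (0.91), PTTG1 (0.72) and NUSAP1 (-0.90, limma adjusted p 0.0341), while MKI67 (-0.73, limma adjusted p 0.0501) did not. BUB1 then passed the interaction test as well (-2.15, limma adjusted p 0.0421, beside 10.1% of genes). Lengths come from Gencode release 44 on GRCh37, which may not be the models the authors used.

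**Figure D4:**
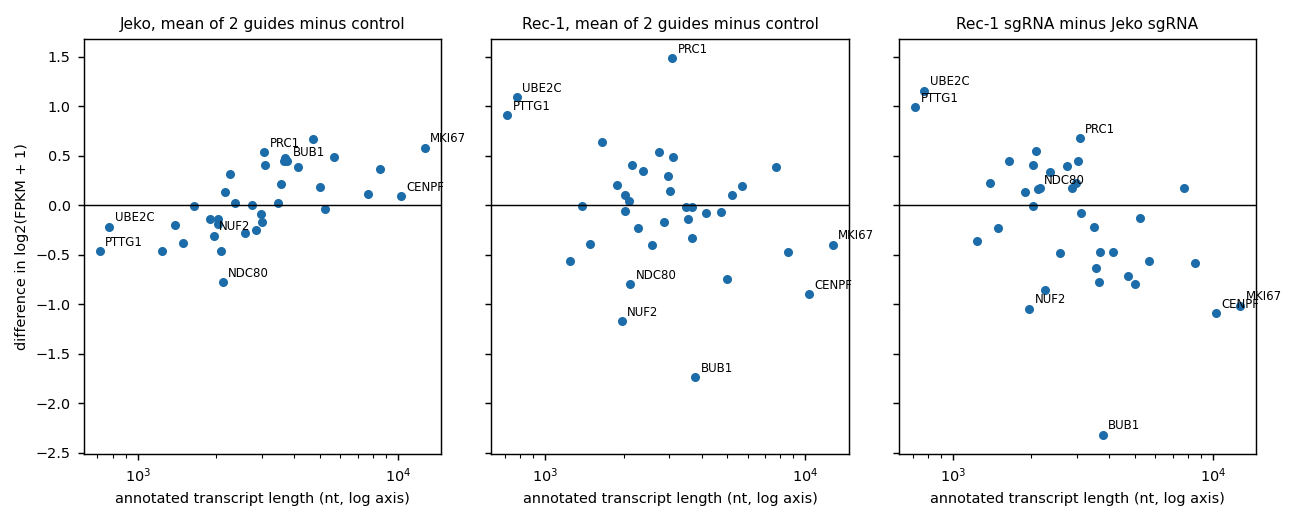
Difference in log2(FPKM + 1) against annotated transcript length in nt (log axis) for the 36 mitotic genes: Jeko guides minus control (left), Rec-1 guides minus control (middle) and Rec-1 sgRNA minus Jeko sgRNA (right), each the mean over 2 guides. In Jeko the points climb from PTTG1 and UBE2C at the short end to MKI67 at the long end, and BUB1 lies far below the others in the panels for Rec-1 and for the line difference.

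Other genes of mitosis, in 6 lists by complex, were compared between the Rec-1 and Jeko sgRNA libraries in the same way. Of 133 tested, 29 passed the limma test (21.8%, beside 25.7% of all tested genes), 27 of them lower and 2 higher, where 13.1% of all tested genes were called lower and 12.6% higher. Their median log2 difference was -0.51, beside -0.10 for the 36 genes and -0.03 for all tested genes, and 106 of the 133 were below 0, beside 5889 of 11400. Rescaling all libraries to equal sums over protein-coding genes raised the median of all tested genes by 0.08 to 0.05, that of the 133 to -0.41 and that of the 36 to 0.00, with 18 of 36 above 0. The count of 29 fell to between 1 and 4 when any 1 of the 4 libraries was left out, with medians of -0.66 to -0.41. The T-cell and myeloid marker sums given above differ between the same libraries, and their part in this result was not tested.

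The counts by list are to be read against that 13.1% called lower. The APC/C subunits had 4 of 17 lower and 0 higher, from ANAPC7 (-1.16, SE 0.17, adjusted p 0.0178) to ANAPC13 (0.73, adjusted p 0.0517). Condensin and cohesin, which compact and hold chromatids, had 5 of 19 lower, from the condensin II subunit NCAPD3 (-1.48, adjusted p 0.0202) to the cohesin release factor WAPAL (0.50, adjusted p 0.250). Of kinetochore and centromere genes, 3 of 30 were lower (10%, below the share of all genes). SPC25, which joins NUF2 and NDC80 in the NDC80 complex, had the lowest estimate: it had 24.6 FPKM in Jeko with empty vector, 19.9 and 17.2 with the guides, 22.8 in Rec-1 with empty vector, and 5.002 and 4.48 with the guides (-1.77, SE 0.19, adjusted p 0.00788). Its partner SPC24, named after its values were seen, was 8.67 to 14.9 FPKM and did not pass (-0.34, adjusted p 0.352). So NUF2 and SPC25 were lower and NDC80 and SPC24 did not pass, within 1 complex of 4 subunits.

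Of mitotic kinesins and spindle factors, 5 of 25 were lower and 1 higher, from the kinesin KIF15 (-1.54, adjusted p 0.0166) to DEPDC1, which was 2.75 to 2.86 FPKM in the 4 other libraries against 11.04 and 11.3 where Rec-1 carried a guide (1.67, adjusted p 0.00635). Mitotic entry kinases and phosphatases had 3 of 18 lower (16.7%), from LATS2 (-1.51, adjusted p 0.00402) to CKS2 (0.70, adjusted p 0.207). Regulators of the G2/M programme had 7 of 24 lower and 1 higher, from CDKN1A, the CDK inhibitor p21 (-1.77, adjusted p 0.0551), to the stress gene GADD45A (2.01, adjusted p 0.0164). Among the 7 were MYBL2 and E2F1, both named after their values were seen. MYBL2, the B-Myb subunit of the activating MuvB complex, had 171 FPKM in Jeko with empty vector, 153 and 122 with the guides, 142 in Rec-1 with empty vector, and 42.8 and 48.1 with the guides (-1.57, SE 0.20, adjusted p 0.0127). All adjusted p here are from limma over all tested genes.

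Against the Rec-1 control, 13 of the 133 passed (9.77%, beside 19.2%), 11 lower and 2 higher, and 0 to 3 passed when a guide library was left out. No gene of the 133 passed over both lines, in Jeko or between guides, and DEPDC1 alone passed the interaction. These lists were chosen with earlier results of the same libraries known.

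**Figure D5:**
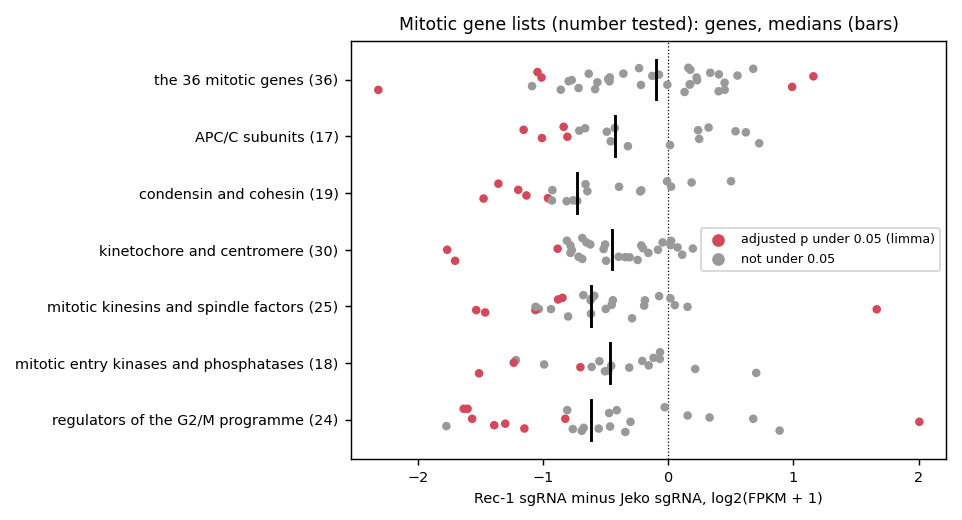
Rec-1 sgRNA minus Jeko sgRNA in log2(FPKM + 1) for the 36 mitotic genes and for 6 other lists of mitotic genes (number tested in brackets); each point is a gene, vertical bars are list medians, red points had a limma adjusted p under 0.05, and vertical scatter is for display. The medians of the other lists lie between -0.73 and -0.43 and that of the 36 genes at -0.10.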

How the data were processed

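Total RNA was made into libraries with an Illumina TruSeq RNA kit, per the labels' protocols, and TopHat and build hg19 are named in the submitters' processing notes, without versions or roles. The authors deposited 1 table of FPKM per gene for 6 libraries, and the program and gene models behind the FPKM values are not given in the sources used here. All 6 columns matched a library by name, with 0 columns left over. FPKM hold no counts, so depth is unknown beyond a relative estimate from the smallest steps of low genes: 0.687 to 1.10 of the Jeko control in 4 of the 5 others, none for Rec-1 guide 1. The rows of MIR6723 and MIR4461 together hold 21.6% to 36.9% of each library's FPKM sum, which moves the scale of all other genes. Precision is limited by the number of libraries.

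Values were log2-transformed from the deposited FPKM as log2(FPKM + 1), and 11400 genes averaging 1 FPKM or more were tested with limma 3.58.1 (R 4.3.3, trended variance, Benjamini-Hochberg), with the lone control of a line assumed to vary like the guides. Fold changes are on that scale and understate low genes. The comparisons were sgRNA against control over both lines (line as covariate), in each line, their interaction, guide 2 against guide 1, and Rec-1 against Jeko sgRNA libraries. The fit was also run on simulated data, in which every library had a spread taken from the guides and few genes were changed. That run cannot show how reliable the calls are here. Gene positions and lengths are from Gencode release 44 on GRCh37, matched for 22947 rows; promoter sequences are from RefSeq (GRCh38.p14). Alternatives were another pseudocount (0.1), other filters, rescalings, protein-coding genes only, a length adjustment, no variance trend, left-out libraries and a guide-number block. Correlation of same-numbered guides' deviations over both lines was 0.0998 over all tested genes and 0.372 over the 36. The number names the same guide in both lines, but no label ties it to a shared culture or day. Except in the guide comparison, the main fits took the guides of a line as replicates of the sgRNA group, though they are different guides. The guide number was a block in an alternative fit only, in which BUB1 and UBE2C did not pass against the Rec-1 control. All 36 genes are named with their range; values in every library are given for a set list, for genes called and for the 4 largest estimates per test; other lists give their extreme genes. The members and lists were chosen with earlier results of these data known.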

Additional observations from a re-analysis of the deposited data

Results flagged for a closer look

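For 12 of the 36 genes both guides moved one way from the control in Jeko and both moved the other way in Rec-1. The share of all tested genes that did so was not counted, so the 12 cannot be read as a trait of these genes. The Rec-1 directions rest on the library labelled Rec-1 control, which stood nearer to Jeko. The Jeko differences followed transcript length, as described above. With the length adjustment, the Jeko estimates of UBE2C (0.076), AURKA (0.006), KIF11 (-0.042) and CENPE (-0.007) changed sign. The rest of the 12 kept their sign in Jeko. The difference was tested as the limma interaction of line and sgRNA (Rec-1 difference minus Jeko difference, log2 scale). None of the 12 passed, beside 6.94% of all tested genes, the lowest adjusted p being 0.0921 for PTTG1. Lower in Jeko and higher in Rec-1 were PTTG1 (1.38), UBE2C (1.31), TTK (0.38) and AURKA (0.29). Higher in Jeko and lower in Rec-1 were BUB1 (-2.18), MKI67 (-0.98), KIF11 (-0.93), CENPE (-0.83), KIF23 (-0.78), NUSAP1 (-0.54), ECT2 (-0.46) and FOXM1 (-0.35).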

How the results depend on the processing

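Among the 36 genes, the count called against the Rec-1 control (3) became 1 with a minimum mean of 5 FPKM, beside 13.3% of all genes fitted. It became 5 among protein-coding genes only, beside 26.3%. Between the sgRNA libraries of the lines the count of 5 became 9 among protein-coding genes only, beside 33.1% of all genes fitted. It became 0 with all 6 libraries and sgRNA as covariate (0.0439% of all tested genes). For both comparisons, the loss of calls without 1 guide library is described above. The interaction count of 0 became 1 (BUB1) among protein-coding genes only and with the length adjustment, beside 9.85% and 10.1% of all genes fitted. Over both lines the count stayed 0 when any 1 guide library was left out. Without the Jeko control the sgRNA estimate comes from Rec-1 alone, and without the Rec-1 control from Jeko alone. Those fits therefore repeat the within-line tests and are not results over both lines. In Jeko, the count was 0 under every alternative run. BUB1 over both lines was -0.65. It equalled its Rec-1 estimate, -1.74, without the Jeko control, and its Jeko estimate, 0.44, without the Rec-1 control. The fit on Jeko libraries alone, chosen after seeing the data, also gave 0.44. The Jeko control in place of the Rec-1 control, also chosen after seeing the data, gave 2 calls, BUB1 and PRC1, beside 20.7% of all tested genes. In a fit with a replicate block for the guide number, 1 gene (PRC1) passed against the Rec-1 control, beside 17.1% of all tested genes. BUB1 and UBE2C did not (limma adjusted p 0.0586 and 0.0673). The number names the same guide in both lines, and no label ties it to a shared culture or day. The median of Rec-1 guide 2, -0.09, became 0.0258 when rescaled to equal protein-coding sums, which shifted the median of all genes there by 0.10. In each test, only the genes called or with the largest estimates were counted across the alternatives. For these, 284 alternative values kept direction and call, 48 lost the call, 6 gained it and 2 reversed. The 2 reversed were BUB1 over both lines, in the fits that rest on Jeko alone. Outside that count, the length adjustment also changed signs in Jeko. BUB3 went from 0.116 to -0.238, CENPF from 0.0897 to -0.319, CDK1 from -0.135 to 0.089 and CCNB1 from -0.135 to 0.0603. CENPA, CDC20, TPX2, UBE2C, AURKA, KIF11 and CENPE changed sign too, and the rest kept it. The guide comparison could not be fitted without a library, since no residual degree of freedom was left. The causes of these shifts were not tested.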

Other observations

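The neighbours of BUB1 within 1 Mb on chromosome 2, looked at after the values of BUB1 were seen, did not share 1 direction between the sgRNA libraries of the lines. Of 3 tested, ANAPC1, an APC/C subunit, differed by -0.46 (limma adjusted p 0.196) and LINC00116 by -0.86 (limma adjusted p 0.0387). BCL2L11, which encodes the pro-apoptotic protein BIM, was 0.0148 to 0.0561 FPKM in the 3 Jeko libraries and the library labelled Rec-1 control, against 11.1 and 10.7 where Rec-1 carried a guide (3.51, limma adjusted p 0.00121).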
